A study of Mus musculus with 9 samples.

Results

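The genes of retinol uptake and retinoic acid signalling were followed in 4T1-TGL cells, a tumour line derived from the mammary gland of BALB/c mice. The members were 8 genes taken by symbol: Stra6, Rbp4, Crabp2, Rarb, Rarg, Rxra, Aldh1a1 and Aldh1a3. They were selected on FPKM and expected counts of these libraries over Ctrl, KO1 and KO2, so their levels and differences are descriptions and carry no test. Of the 19072 gene identifiers in the tables, 7 were members, because Rbp4 had no row in any of the 9 tables used here. Of the 8 members, 3 passed the filter on low counts, namely Stra6, Rarg and Rxra.

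RNA was sequenced from 3 libraries each of KO1, KO2 and Ctrl. KO1 and KO2 are lines labelled as knockouts of Malat1, a nuclear long noncoding RNA, and the study's own names for them are KO#3 and KO#43. Ctrl is the same cell line with the wild-type gene, and all cells were grown in DMEM/F12 medium. The sources used here do not say whether a line is 1 clone or how Malat1 was altered. Nothing in the labels says that the replicates came from separate cultures, so the spread between them may be technical.

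Retinol circulates bound to the carrier RBP4 and can enter cells through the receptor STRA6. Inside the cell it is oxidised to retinal by dehydrogenases and then, irreversibly, to retinoic acid by the ALDH1A enzymes. Retinoic acid is carried into the nucleus by CRABP2 and binds the RAR receptors, which act as heterodimers with RXR, while CYP26 enzymes break it down. In mammary epithelium and breast cancer the pathway is known for restraining growth, and Rarb is a classical target gene that is often silent in breast tumours.

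Libraries held 30655924 to 35406395 expected counts, the read counts estimated per gene by RSEM. The labelled knockouts were checked on Malat1 itself, which had 0.58, 0.54 and 0.39 FPKM in KO1 and 16.54, 22.16 and 13.4 FPKM in KO2, against 74.11, 58.12 and 69.52 FPKM in Ctrl. FPKM are fragments scaled to transcript length and to the mapped total, so they allow levels to be compared between genes. The transcript was thus nearly gone in KO1 and still present in KO2. The epithelial keratins Krt8 and Krt18 were high in every library, whereas Epcam, Cdh1, Cldn3, Cldn4 and Cldn7, which define mammary epithelium, stayed at or near 0. The summed level of the 7 epithelial markers was 799 to 939 FPKM in KO1, 1342 to 1448 FPKM in KO2 and 456 to 472 FPKM in Ctrl. Of 9 fibroblast markers, 4 reached 1 FPKM in some library (Pdgfra, Pdgfrb, Dcn and Pi16). The fibroblast sum was 49.5 to 52.6 FPKM in KO1, 26.4 to 26.7 FPKM in KO2 and 56.1 to 57.9 FPKM in Ctrl. Most of it was Pdgfra, with means of 40.4 FPKM in KO1, 20.5 FPKM in KO2 and 43.3 FPKM in Ctrl. Pi16 went the other way, with means of 2.66 FPKM in KO1, 3.05 FPKM in KO2 and 0.72 FPKM in Ctrl. Of 9 macrophage and neutrophil markers, 2 reached 1 FPKM in some library (Cd68 and S100a8). Their list summed to 30.3 to 50.4 FPKM in KO1, 47.2 to 50.3 FPKM in KO2 and 25.1 to 43.4 FPKM in Ctrl. Ptprc, which marks all leukocytes and is in the same list, was at most 0.02 FPKM. In bulk RNA, fewer cells of a type and less RNA per cell cannot be told apart. The KO2 libraries stood apart from the other 6 on the first principal component, which held 66.3% of the variance.

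Stra6 was present in the Ctrl libraries and practically absent from both knockout lines. The gene (Entrez 20897, chr9:58063793-58154004, GRCm38) encodes the membrane receptor that takes up retinol from its carrier. It had 0.01, 0 and 0 FPKM in KO1 and 0 in all 3 KO2 libraries, against 6.04, 8.86 and 6.86 FPKM in Ctrl. In counts, a single read was assigned in KO1 replicate 1 and none in the other 5 knockout libraries, whereas Ctrl had 561, 889 and 633. No knockout library came near the lowest Ctrl library, and among all tested genes 20.9% in KO1 and 35.5% in KO2 lay below Ctrl without overlap in CPM. The KO1 sum of 1 count was 0.0490% of the depth-adjusted Ctrl level (95% exact interval 0.00124% to 0.273%). Stra6 in KO2 was at least 329-fold lower than the Ctrl level, with KO2 set to a group floor of 5.57 counts, made of 3 counts and of those that the listing minimum of 0.01 FPKM could hide. Intervals and floors cover counting error only. Both comparisons use the same 3 Ctrl libraries, so they are not separate evidence on the Ctrl level.

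A total of 4 mouse promoter windows of Stra6 are held in the RefSeq table for GRCm38.p6, each covering 250 bases before and 50 after a start site. They were searched on both strands for the half-site AGGTCA, which RAR and RXR heterodimers read in pairs. Also searched were its close form GGGTCA, the form AGTTCA that the promoter of Rarb holds, and the form GGTTCA found beside it in the same promoter. Only 1 of the 4 windows held a half-site, shown in capitals.

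Stra6 promoter (chr9:58133825-58134124, + strand): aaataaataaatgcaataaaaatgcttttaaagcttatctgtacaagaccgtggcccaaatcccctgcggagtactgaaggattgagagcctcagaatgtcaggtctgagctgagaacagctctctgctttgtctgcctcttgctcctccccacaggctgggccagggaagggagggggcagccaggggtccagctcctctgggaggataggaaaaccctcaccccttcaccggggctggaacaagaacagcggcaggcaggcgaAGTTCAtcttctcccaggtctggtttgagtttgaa

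A single half-site occurs in 43.7% of all 32851 promoter windows. No window of Stra6 held a direct repeat of these half-sites spaced by 1, 2 or 5 bases. All windows of Stra6 lie inside the gene span given above, the first beginning at 58128838. The outermost start, at 58063793 on the + strand, has no window and was not searched.

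**Figure D1:**
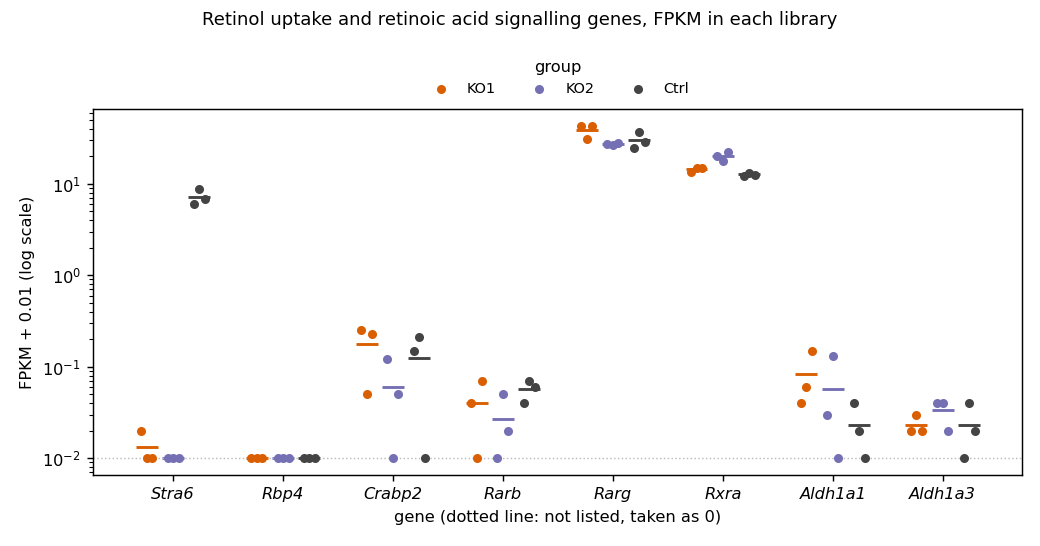
FPKM of the members in each library on a log scale after adding 0.01, with points for libraries and bars for group means of KO1, KO2 and Ctrl. Stra6 lies at the floor in the knockout lines and between 6.04 and 8.86 FPKM in Ctrl, while Rarg and Rxra are above 12 FPKM in every library.

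Genes next to Stra6 were lower as well. Of the 10 nearest genes that could be tested, 5 on each side over 537 kb, 6 were called lower in KO1 and 8 in KO2, and none was called higher in either line. Calls are those of edgeR's quasi-likelihood test, with the Benjamini-Hochberg adjusted p over all 13682 tested genes below 0.05. Among all tested genes, 14.9% were called lower in KO1 and 29.5% in KO2. Drops of more than 2 on the log2 scale were seen for 4 of the 10 in KO1 and for 6 in KO2, against 1.78% and 6.91% of all tested genes in those lines. In KO1 they were Ccdc33, Islr, Islr2 and Loxl1, and in KO2 also Sema7a and Arid3b. All but Islr were low in Ctrl, with means of 0.86 (Ccdc33), 0.15 (Islr2), 0.49 (Loxl1), 0.91 (Sema7a) and 0.52 FPKM (Arid3b). In the GENCODE annotation Islr reaches over nearly all of Islr2 on the same strand, so Islr and Islr2 may not be separate drops. The window of 5 genes per side was set after the values had been seen.

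Islr, a cell surface protein with leucine-rich repeats known as a mesenchymal stromal marker, lies on the minus strand with its nearer end 2.24 kb beyond Stra6. It had 0, 0.02 and 0 FPKM in KO1 and 0, 0.05 and 0.02 FPKM in KO2, against 4.05, 4.96 and 4.40 FPKM in Ctrl. Its edgeR adjusted p was 1.2e-07 in KO1 and 5.22e-08 in KO2. Ccdc33, a coiled-coil protein gene, overlaps Stra6 on the opposite strand and had 0.01, 0 and 0 FPKM in KO1 and 0 in all KO2 libraries, against 0.68, 1.00 and 0.89 FPKM in Ctrl. Its edgeR adjusted p was 1.51e-05 in KO1 and 5.09e-06 in KO2. Whether the counting used strand is not given in the sources used here, so reads from the stretch shared by Ccdc33 and Stra6 cannot be told apart. Both neighbours were at or near 0 in the same 6 knockout libraries as Stra6.

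The lines differed farther out. Sema7a, a membrane-anchored semaphorin, had 0.84, 0.83 and 0.86 FPKM in KO1 and 0.02, 0 and 0 FPKM in KO2, against 0.96, 0.96 and 0.82 FPKM in Ctrl. It fell in KO2 against Ctrl (edgeR adjusted p 3.25e-07) and against KO1 (log2 fold change -6.67, edgeR adjusted p 3.97e-07), while in KO1 the log2 fold change against Ctrl was -0.14 (edgeR adjusted p 0.673). Loxl1, a lysyl oxidase that cross-links elastin, fell in both lines, with log2 fold changes of -2.27 in KO1 (edgeR adjusted p 0.00196) and -3.23 in KO2 (edgeR adjusted p 0.000194). Pml lies between Islr2 and Loxl1, with its lower coordinate 153 kb from that of Stra6. It encodes the scaffold of nuclear bodies and in human leukaemia is fused to the gene of RAR alpha. Its levels overlapped, with 8.45, 12.57 and 10.13 FPKM in KO1 and 10.87, 13.00 and 12.54 FPKM in KO2, against 11.58, 9.53 and 11.20 FPKM in Ctrl.

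**Figure D2:**
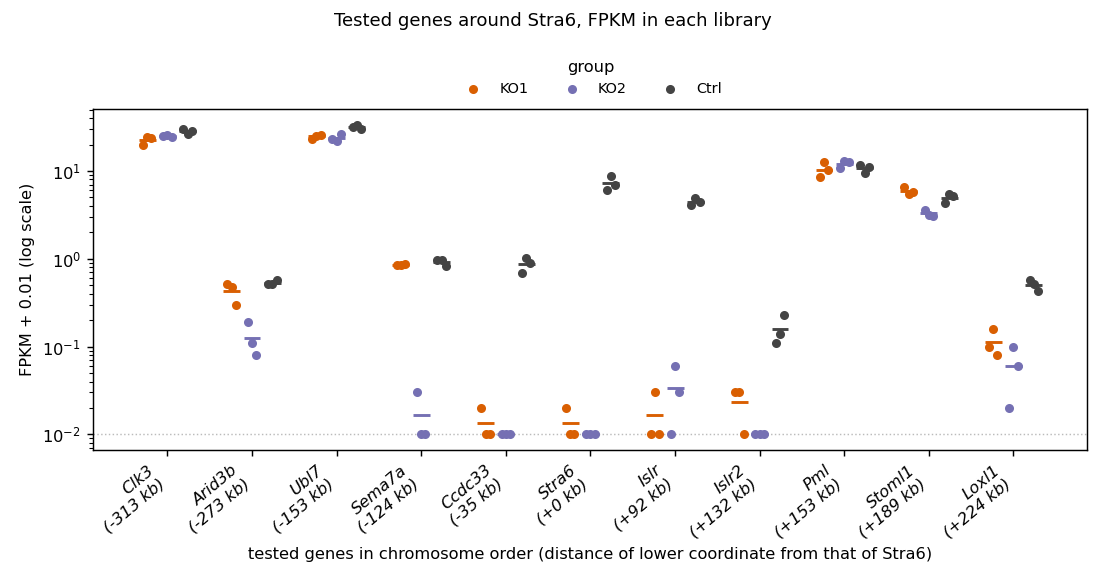
FPKM of Stra6 and of the 10 tested genes around it in each library, on a log scale after adding 0.01, in chromosome order with the distance of each gene's lower coordinate from that of Stra6 in kilobases. Ccdc33, Islr and Islr2 are at or near 0 in KO1 and KO2, Sema7a is near 0 in KO2 but not in KO1 or Ctrl, and Pml is at a like level in all 3.

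The same count of 5 tested genes per side was made for the other 7 members, which gave 70 neighbours. Of these, 15 were called higher and 10 lower in KO1, none by more than 2 on the log2 scale. Among all tested genes, 15.6% were called higher and 14.9% lower in KO1, and 24.6% higher and 29.5% lower in KO2. In KO2, 25 of the 70 neighbours were called higher and 17 lower, with 1 higher and 3 lower by more than 2. Those 4 were chosen after their values were seen. Olfm1 lies 430 kb from Rxra (2.15, edgeR adjusted p 8e-05) and Il3ra 2075 kb from Rarb (-6.15, edgeR adjusted p 3.93e-05). Trpm3 lies 1494 kb from Aldh1a1 (-2.52, edgeR adjusted p 7.75e-05) and 1810008I18Rik 585 kb from Aldh1a3 (-2.35, edgeR adjusted p 0.0035). Around Rxra, 2 neighbours were called higher and 3 lower in KO1, and 6 higher and none lower in KO2. Around Rarg, 7 were called higher in KO1 and 6 in KO2, with none lower. Around Rarb, 8 were called lower in KO2 and none higher. Whether the neighbourhood of Stra6 differs from these was not tested.

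Rbp4, the secreted carrier of retinol in blood, was listed in no library (Entrez 19662, chr19:38116620-38125321). Aldh1a1 and Aldh1a3, which oxidise retinal to retinoic acid and are used as markers of breast cancer stem cells, were close to the limit of detection. Aldh1a1 (chr19:20492583-20643463) had 2, 3 and 9 counts in KO1 and 1, 7 and 0 in KO2, against 2, 1 and 0 in Ctrl. In KO2, 7 of the 8 counts came from replicate 2. Some endothelial and fibroblast markers were also raised there, such as Cdh5 (0.28 FPKM), Pecam1 (0.27 FPKM) and Col3a1 (0.39 FPKM), all near 0 in the other KO2 libraries. Other markers of these lists were not, such as Eng (20.06 FPKM, against 20.87 and 22.97 FPKM) and Dcn (0.05 FPKM, against 0.09 and 0.13 FPKM). Pecam1 also had 0.12, 0.17 and 0.16 FPKM in KO1. A link of these traces to the Aldh1a1 counts was not tested. Aldh1a3 (chr7:66390892-66427477) had 1, 2 and 1 counts in KO1 and 3, 3 and 1 in KO2, against 0, 3 and 1 in Ctrl. Neither gene exceeded 0.14 FPKM in any library. Both fell below the filter on low counts, so a difference between groups was not tested, and this depth limits any comparison.

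Crabp2, the protein that delivers retinoic acid to RAR, was equally low (chr3:87948693-87953372). It had 7, 1 and 6 counts in KO1 and 3, 0 and 1 in KO2, against 4, 6 and 0 in Ctrl, with at most 0.24 FPKM. Rarb, the receptor gene that retinoic acid itself induces (chr14:16430839-17082331), had 3, 0 and 5 counts in KO1 and 0, 3 and 1 in KO2, against 3, 6 and 4 in Ctrl. Its highest level was 0.06 FPKM. The groups overlapped for both genes.

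The promoter of Rarb holds the textbook pair of half-sites, and so does that of Cyp26a1, the classical inducible enzyme that breaks down retinoic acid. Both are shown because they carry the element that was not found in the Stra6 windows. Capitals mark the direct repeat spaced by 5 bases, which in Cyp26a1 is read on the opposite strand.

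Rarb promoter (chr14:16575427-16575726, - strand): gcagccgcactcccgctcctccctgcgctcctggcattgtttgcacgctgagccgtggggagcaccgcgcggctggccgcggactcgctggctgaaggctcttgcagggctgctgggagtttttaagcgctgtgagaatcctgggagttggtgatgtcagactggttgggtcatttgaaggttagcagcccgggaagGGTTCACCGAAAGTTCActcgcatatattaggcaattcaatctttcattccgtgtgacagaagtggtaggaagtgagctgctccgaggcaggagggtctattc

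Cyp26a1 promoter (chr19:37697558-37697857, + strand): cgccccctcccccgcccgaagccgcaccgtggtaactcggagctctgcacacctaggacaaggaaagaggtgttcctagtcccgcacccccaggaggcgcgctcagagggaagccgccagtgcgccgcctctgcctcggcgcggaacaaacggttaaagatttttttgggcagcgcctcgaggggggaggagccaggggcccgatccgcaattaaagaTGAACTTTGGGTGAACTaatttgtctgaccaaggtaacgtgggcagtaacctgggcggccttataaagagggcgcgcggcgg

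The sequences are from RefSeq, GRCm38.p6, where 32 of 32851 windows (0.0974%) hold such a repeat. In Rarb it begins 53 bases before the start site. A match is a description of letters and not a bound site. Cyp26a1 was as low as Rarb, with 0.05, 0.06 and 0.11 FPKM in KO1 and 0.09, 0.08 and 0 FPKM in KO2, against 0.11, 0.05 and 0.04 FPKM in Ctrl. Rarb and Cyp26a1, both near 0 in all 3 groups, are textbook cases picked among the 32 windows. Nothing on the other windows is read from them. Since half-site forms of Rarb were part of the search, its match was fixed in advance.

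Rarg and Rxra were the abundant members. Rarg (Entrez 19411, chr15:102234938-102257522), the RAR gamma receptor, had 43.11, 31.12 and 42.41 FPKM in KO1 and 27.33, 26.86 and 28.01 FPKM in KO2, against 24.45, 37.16 and 28.37 FPKM in Ctrl. KO1 was high in 2 libraries, KO2 was tight, and Ctrl was spread by replicate 2. KO1 and KO2 each overlapped Ctrl, while all KO2 libraries lay below all KO1 libraries, as was so for 32.6% of all tested genes. The log2 fold change was 0.34 ± 0.156 (SE) in KO1 and -0.06 ± 0.156 (SE) in KO2 against Ctrl, and -0.39 ± 0.156 (SE) in KO2 against KO1. Without Ctrl replicate 2 the values against Ctrl were 0.53 in KO1 and 0.13 in KO2, so the sign in KO2 rests on that library.

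Rxra (Entrez 20181, chr2:27676445-27763319), the common partner of RAR and of many other nuclear receptors, was higher in KO2. It had 13.40, 14.82 and 15.04 FPKM in KO1 and 19.93, 17.94 and 22.04 FPKM in KO2, against 12.25, 13.21 and 12.62 FPKM in Ctrl. All KO2 libraries lay above those of the other groups, as was so for 30.2% of all tested genes against Ctrl and 29.5% against KO1. KO1 lay just above Ctrl in FPKM, but in CPM, for which library sizes were adjusted by TMM scaling, the 2 groups overlapped. The log2 fold change was 0.15 ± 0.0866 (SE) in KO1 and 0.73 ± 0.0867 (SE) in KO2 against Ctrl, and 0.58 ± 0.0865 (SE) in KO2 against KO1.

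By FPKM the order in Ctrl was Rarg, Rxra, Stra6, with no overlap between them, and then Crabp2, Rarb, Aldh1a1 and Aldh1a3, which overlapped at 0.20 FPKM or less. In KO1 and KO2 the order was again Rarg above Rxra, and Stra6 joined the genes near 0. Of the 3 members that could be tested, 1 was called in KO1 (Stra6, lower), beside 30.5% of the 13682 genes. In KO2, 2 were called (Stra6 lower, Rxra higher), beside 54.1% of the 13682 genes. In KO2 against KO1, 1 was called (Rxra, higher), beside 55.0% of all tested genes. The members were proposed on these contrasts, so nothing is read from these counts.

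Among the RAR genes, Rara and Rarg shared the transcripts. Rara made up 50.4% ± 4.98 of their summed FPKM in KO1, 57.8% ± 1.58 in KO2 and 49.4% ± 4.80 in Ctrl (SD, n = 3 each). Rarb was at most 0.0905% of the sum in any group. Rxra made up 42.1% ± 1.33 of the RXR sum in KO1, 49.5% ± 1.74 in KO2 and 39.3% ± 2.46 in Ctrl (SD, n = 3 each), with the remainder from Rxrb, since Rxrg was listed in no library.

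By the root mean square difference of centred log2 CPM over 9 libraries, the genes most like Stra6 were Serpina1b (0.10) and Serpina3g (0.37). Both belong to families of near-identical copies, so their counts are uncertain. Stra6 and these genes had almost no counts in the knockout libraries, so the distance rests largely on the Ctrl level. That level was 20.4 CPM for Stra6, 19.4 CPM for Serpina1b and 30.5 CPM for Serpina3g. Scaper (0.08) and Hdac4 (0.08) were most like Rarg, and Mapk8ip1 (0.07) was among the genes most like Rxra. The search covered 10297 genes with a mean of at least 5 CPM over the 9 libraries. Islr, with a mean of 9.24 CPM in Ctrl and near 0 in both lines, fell below that limit and was not compared.

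The rest of the pathway was taken from 6 lists of 121 genes in all, of which 106 were listed and 77 could be tested. The lists were written from general knowledge, but with earlier results of these data known. Their shares beside those of all tested genes are therefore descriptions and no test of the pathway. Of these 77, 19 were called higher and 13 lower in KO1 against Ctrl (41.6%), and 22 higher and 25 lower in KO2 against Ctrl (61.0%). Over all tested genes the shares were 30.5% in KO1 (15.6% higher, 14.9% lower) and 54.1% in KO2 (24.6% higher, 29.5% lower), and the counts per list are set beside these. The median log2 fold change was 0.05 in KO1 and -0.06 in KO2, beside -0.00167 in KO1 and -0.03 in KO2 over all tested genes. In 5 of the 6 lists each line had genes called higher and genes called lower, the exception being retinoic acid binding and breakdown.

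Of the genes of retinoid storage and transport, 8 of 18 could be tested. In KO1, 2 were called higher and 1 lower (37.5%), and in KO2, 1 higher and 3 lower (50%). Rbp2, a cellular retinol-binding protein best known from the intestine, had 12.39, 12.01 and 14.27 FPKM in KO1 and 1.22, 1.47 and 0.99 FPKM in KO2, against 7.09, 8.27 and 7.04 FPKM in Ctrl. It rose in KO1 (log2 fold change 0.80, edgeR adjusted p 0.00167) and fell in KO2 (-2.55, edgeR adjusted p 5.2e-07). Lrp2, the endocytic receptor megalin, was listed at no more than 0.01 FPKM in KO1 and at 0 in KO2, against 0.03 to 0.05 FPKM in Ctrl. Its lower calls in both lines were lost with limma on log2(FPKM + 1). Scarb1, a carotenoid and lipoprotein receptor, rose by 0.27 in KO2 (edgeR adjusted p 0.0452), a call that was lost when any 1 of the Ctrl or KO2 libraries, or KO1 replicate 3, was left out. The KO1 count was 5 without KO1 replicate 1. In KO2, limma on log2(FPKM + 1) called 2.

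Among the oxidoreductases that convert retinol and retinal, 13 of 19 could be tested, and 1 was called higher and 4 lower in KO1 (38.5%), and 2 higher and 4 lower in KO2 (46.2%). Dhrs3, which reduces retinal back to retinol and is itself known as induced by retinoic acid, had 0.02, 0.22 and 0.10 FPKM in KO1 and 0.19, 0.42 and 0.20 FPKM in KO2, against 1.35, 2.38 and 2.09 FPKM in Ctrl. It fell in KO1 (-4.34, edgeR adjusted p 7.24e-05) and in KO2 (-2.77, edgeR adjusted p 0.000258). Rdh5, a retinol dehydrogenase of the visual cycle, had 3.53, 5.93 and 3.74 FPKM in KO1 and 3.62, 4.56 and 3.92 FPKM in KO2, against 16.99, 16.39 and 16.54 FPKM in Ctrl. On counts Rdh5 fell by 1.54 on the log2 scale in KO1 (edgeR adjusted p 4.44e-05) and by 1.56 in KO2 (edgeR adjusted p 1.55e-05). Its drop in FPKM was larger in both lines, and why the measures differ was not tested. Rdh10, the main retinol dehydrogenase of the embryo, fell in KO2 (2.80 ± 0.168 FPKM, against 7.39 ± 0.408 FPKM in Ctrl, SD, n = 3 each; edgeR adjusted p 5.46e-07), whereas in KO1 its log2 fold change was -0.08 (edgeR adjusted p 0.509). Rdh11 fell by 0.56 in KO1 (edgeR adjusted p 0.0151), a call that was lost without Ctrl replicate 1 and without KO1 replicate 3. Dhrs9 rose a little in both lines, by 0.32 in KO1 and 0.34 in KO2 (edgeR adjusted p 0.0118 in KO1 and 0.0047 in KO2), and its KO1 call was lost without the same libraries. Leaving out Ctrl replicate 1 or KO1 replicate 3 took the KO1 count of 5 to 3.

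Of the genes for retinoic acid binding and breakdown, 2 of 5 could be tested. Both rose in KO1, and 1 fell in KO2. Fabp5, which carries fatty acids and retinoic acid to another nuclear receptor, PPAR delta, had 64.78, 106 and 81.26 FPKM in KO1 and 25.52, 26.96 and 24.78 FPKM in KO2, against 29.40, 21.48 and 27.08 FPKM in Ctrl. It rose in KO1 (1.66, edgeR adjusted p 4.51e-05), with a log2 fold change of 0.06 in KO2 (edgeR adjusted p 0.769). Near-identical copies of Fabp5 exist in the mouse genome, so its count is uncertain. Cyp26b1, which breaks down retinoic acid, had 5.53, 3.96 and 5.98 FPKM in KO1 and 0.50, 0.54 and 0.53 FPKM in KO2, against 0.95, 1.51 and 1.15 FPKM in Ctrl. It rose in KO1 (2.02, edgeR adjusted p 1.49e-05) and fell in KO2 (-1.13, edgeR adjusted p 0.000762).

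**Figure D3:**
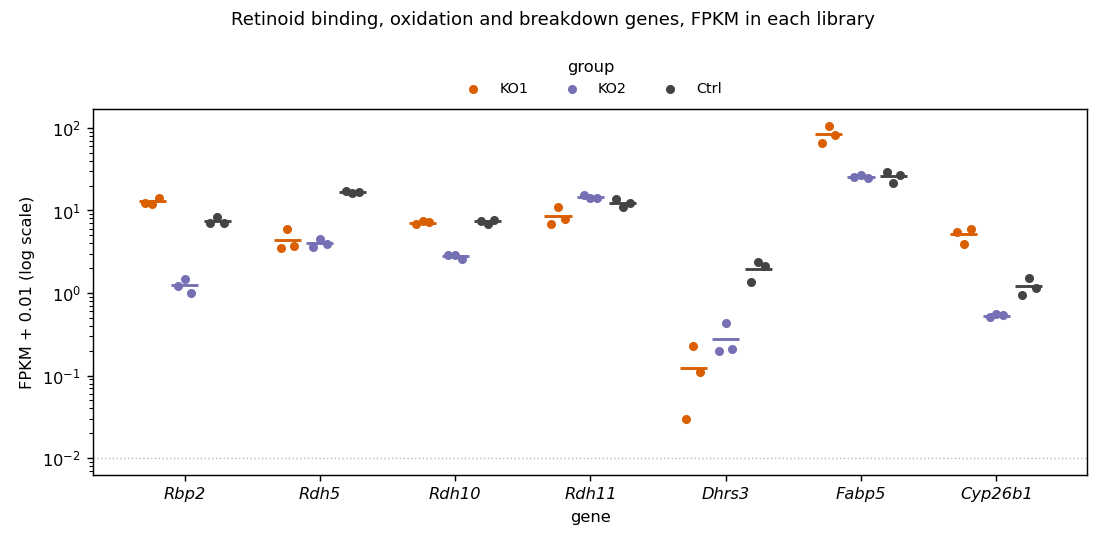
FPKM of 7 genes of retinoid binding, oxidation and breakdown in each library on a log scale after adding 0.01, with points for libraries and bars for group means of KO1, KO2 and Ctrl. Rbp2 and Cyp26b1 lie above Ctrl in KO1 and below it in KO2, while Rdh5 and Dhrs3 lie below Ctrl in both lines.

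Of the other nuclear receptors, 14 of 21 could be tested, and 5 were called higher and 2 lower in KO1 (50%), and 6 higher and 5 lower in KO2 (78.6%). Rara, the third RAR gene, had 36.28, 38.98 and 42.36 FPKM in KO1 and 35.07, 39.29 and 38.36 FPKM in KO2, against 25.99, 29.06 and 31.66 FPKM in Ctrl. It rose by 0.41 in KO1 (edgeR adjusted p 0.00413) and by 0.46 in KO2 (edgeR adjusted p 0.00103). Vdr, the vitamin D receptor and a partner of RXR, had 5.30, 6.50 and 6.64 FPKM in KO1 and 0.60, 0.77 and 0.71 FPKM in KO2, against 2.29, 2.42 and 2.74 FPKM in Ctrl. It rose in KO1 (1.28, edgeR adjusted p 2.02e-05) and fell in KO2 (-1.76, edgeR adjusted p 1.28e-06). Pparg, the adipogenic partner of RXR, fell in KO2 (-2.17, edgeR adjusted p 0.000243), as did the oxysterol receptor gene Nr1h3 (-1.15, edgeR adjusted p 0.00518). Nr2f1, an orphan receptor known to compete for retinoid elements, rose in both lines, by 0.54 in KO1 (edgeR adjusted p 0.00154) and 1.27 in KO2 (edgeR adjusted p 1.08e-06). Rxrb had 19.36, 19.23 and 20.89 FPKM in KO1 and 21.63, 18.65 and 20.88 FPKM in KO2, against 16.85, 21.92 and 20.48 FPKM in Ctrl, and these groups overlapped.

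**Figure D4:**
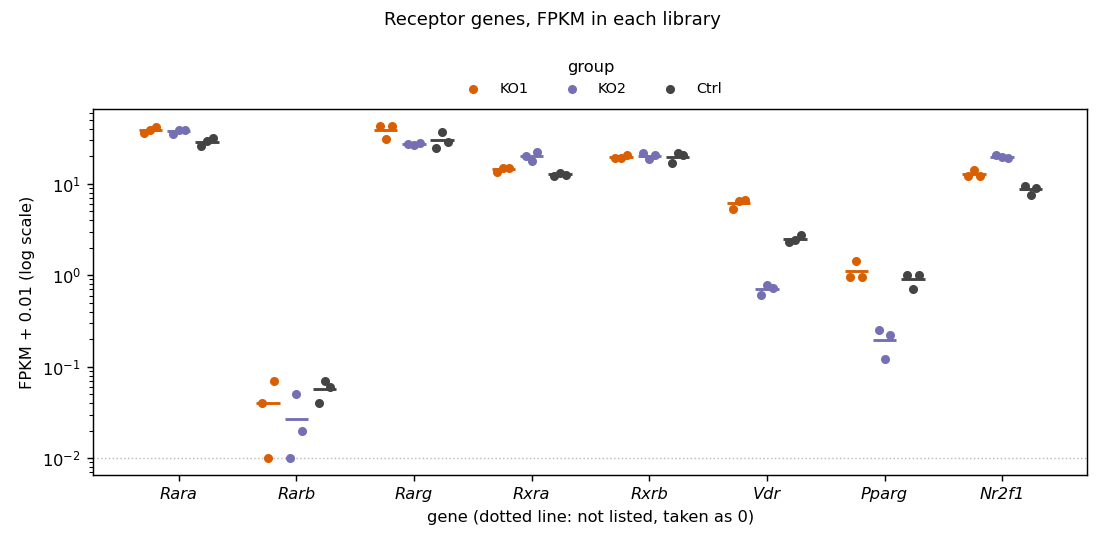
FPKM of 8 receptor genes in each library on a log scale after adding 0.01, with points for libraries and bars for group means of KO1, KO2 and Ctrl. Rara, Rarg, Rxra and Rxrb are expressed in every library, Rarb is near 0, and Vdr is above Ctrl in KO1 and below it in KO2.

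All 19 coregulator genes could be tested, and 1 was called higher and 1 lower in KO1, and 3 higher and 3 lower in KO2 (10.5% and 31.6% of those tested). Tnip1, which represses liganded RAR and also inhibits NF-kB signalling, fell in both lines, with 34.14, 39.38 and 43.63 FPKM in KO1 and 19.15, 19.24 and 19.99 FPKM in KO2, against 52.67, 49.99 and 50.28 FPKM in Ctrl. Its edgeR adjusted p was 0.00397 in KO1 and 3.29e-07 in KO2. Nrip1, a ligand-dependent corepressor, had a log2 fold change of -0.55 in KO2 against Ctrl on counts (edgeR adjusted p 9.44e-05), a call that was lost with FPKM, where it was -0.25 in limma. The KO1 count of 2 was 4 without KO1 replicate 1.

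Of 39 genes known as induced by retinoic acid in various cells, 21 could be tested. In KO1, 8 were called higher and 5 lower (61.9% of those tested, beside 30.5% of all tested genes), and in KO2, 10 higher and 9 lower (90.5%, beside 54.1%). This list too was written with earlier results of these data known, so no excess is read from the shares. Hoxa3, Hoxa4 and Hoxa5, patterning genes of 1 cluster, rose in KO2 by 1.23, 1.87 and 1.34 (edgeR adjusted p 6.06e-05, 0.000848 and 2.36e-05), while in KO1 none of the 3 was called by edgeR. Hoxa5 was called higher in KO1 by DESeq2 (0.40), by limma on log2(FPKM + 1) (0.46) and log2(FPKM + 0.1) (0.47), and by edgeR without KO1 replicate 1 (0.52), and its KO1 libraries all lay above Ctrl. Hoxa5 had 25.78, 33.37 and 28.59 FPKM in KO1 and 48.54, 46.84 and 47.49 FPKM in KO2, against 22.53, 17.89 and 22.65 FPKM in Ctrl. Foxa1, a pioneer factor of luminal breast cells, had 0.31, 0.23 and 0.29 FPKM in KO1 and 0.32, 0.25 and 0.30 FPKM in KO2, against 1.78, 1.54 and 1.74 FPKM in Ctrl, and fell in both lines (edgeR adjusted p 1.44e-06 in KO1 and 7.52e-07 in KO2). Asb2, a ubiquitin ligase subunit known from retinoic acid treated human leukaemia cells, had 1.90, 3.29 and 3.71 FPKM in KO1 and 0, 0 and 0.01 FPKM in KO2, against 0.09, 0.15 and 0.12 FPKM in Ctrl. It rose in KO1 (4.38, edgeR adjusted p 3.23e-06), while the single KO2 count was 3.56% of the Ctrl level (95% exact interval 0.0873% to 21.3%). The KO2 call of Asb2 was lost with limma on log2(FPKM + 1) (-0.16). Btg2, an antiproliferative gene, fell in KO2 (-2.61, edgeR adjusted p 2.89e-06). Sox9, a progenitor factor, rose in KO1 (0.96, edgeR adjusted p 3.09e-06).

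**Figure D5:**
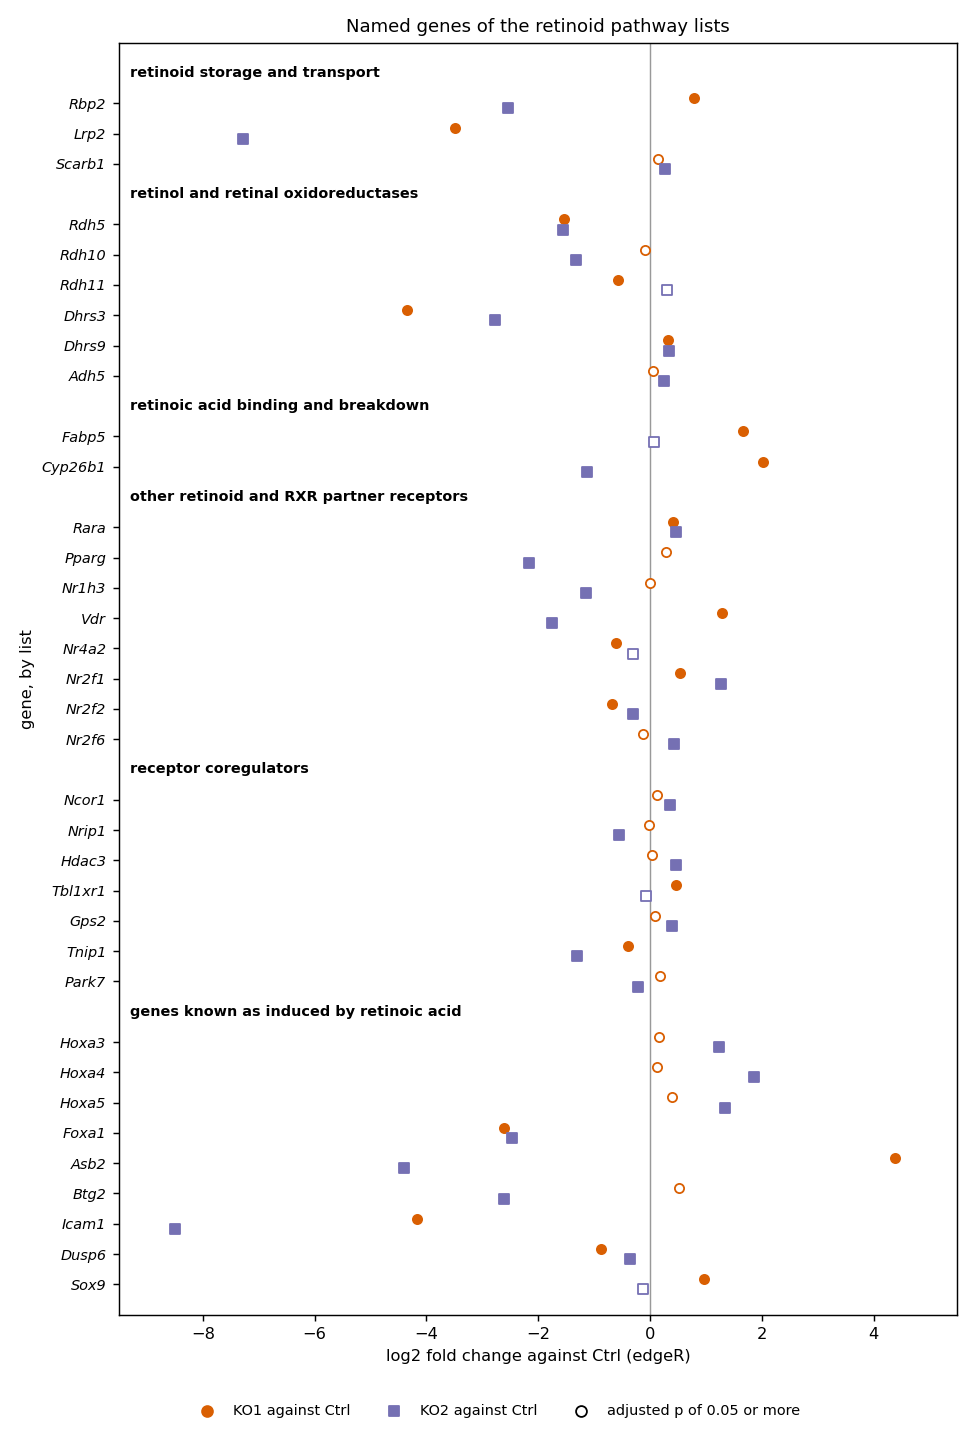
Log2 fold change against Ctrl of 35 named genes of the 6 lists, with circles for KO1 and squares for KO2 and open symbols for an edgeR adjusted p of 0.05 or more. Rdh5, Dhrs3 and Foxa1 are lower in both lines, while Rbp2, Cyp26b1, Vdr and Asb2 lie on opposite sides of 0, and values of genes with almost no counts in a group (Lrp2, Asb2) depend on the prior count.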

How the data were processed

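Total RNA of 9 libraries was sequenced as 100 bp paired reads, per the labels. Per the submitters' processing notes, HISAT and RSEM were used by the authors with mm10 and GRCm38, and no versions are given. The deposited expected counts are RSEM estimates per gene, not normalised. The deposited FPKM were scaled by the authors for transcript length and library size. Genes under 0.01 FPKM are not listed and were taken as 0. Such a level could hide some reads, which floors include.

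Counts were rounded and fitted in edgeR 4.0.16 (R 4.3.3) with filterByExpr, TMM scaling and a robust quasi-likelihood fit, all 9 libraries in 1 fit with 6 residual degrees of freedom, leaving 13682 genes. The Benjamini-Hochberg adjustment covered all of these. SEs were computed back from the F statistic and are approximate. CPM are after TMM. The fit was tested on simulated data.

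The members and lists were chosen with earlier results of these data known. Named list genes are up to 3 per direction, list and contrast against Ctrl, by the size of the log2 fold change among called genes. Some genes that the rules take are not reported here, though counts over lists include them. Samples were grouped by title. The design text numbers the sixth and ninth samples differently. Deviations of same-numbered libraries had correlations from -0.343 to 0.049, so samples were treated as unpaired. Alternatives covered DESeq2 1.42.0, limma 3.58.1, scaling, filters, a replicate block and each library left out.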

Additional observations from a re-analysis of the deposited data

Results flagged for a closer look

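For 28 of the 35 named pathway genes, the effect in KO2 differed from that in KO1. Each was called against Ctrl in at least 1 line, and KO2 against KO1, in which Ctrl cancels out, was called as well in edgeR's quasi-likelihood test with Benjamini-Hochberg adjustment. Among all tested genes, 55.0% were called in that comparison. The named genes were picked for calls and large changes against Ctrl, which favours such differences. The share over all tested genes is thus not a like reference, and no excess is read from it. The values below are log2 fold changes of KO2 against KO1.

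In 4 of them both lines were called against Ctrl in opposite directions: Rbp2 (-3.34), Cyp26b1 (-3.15), Vdr (-3.04) and Asb2 (-8.78). For Asb2 the KO2 call rests on 1 count in KO2, against 32 in Ctrl, and was lost with limma on log2(FPKM + 1). Among the other retinoid handling genes the difference was -1.24 for Rdh10, 0.87 for Rdh11, 1.57 for Dhrs3, 0.20 for Adh5 and -1.60 for Fabp5. Among the receptors it was -2.45 for Pparg, -1.14 for Nr1h3, 0.73 for Nr2f1, 0.38 for Nr2f2 and 0.56 for Nr2f6.

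Among the coregulators the difference was 0.23 for Ncor1, -0.52 for Nrip1, 0.43 for Hdac3, -0.54 for Tbl1xr1, 0.30 for Gps2, -0.90 for Tnip1 and -0.38 for Park7. Among genes known as induced by retinoic acid it was 1.07 for Hoxa3, 1.75 for Hoxa4, 0.94 for Hoxa5, -3.12 for Btg2, -4.33 for Icam1, 0.53 for Dusp6 and -1.10 for Sox9. The differences of Dhrs3, Gps2 and Adh5 were no longer called when 1 of several libraries was left out. On FPKM with limma, those of Dhrs3, Gps2, Adh5 and Ncor1 (0.098 and 0.10) were not called either, and that of Nrip1 turned to 0.10.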

How the results depend on the processing

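The counts of called genes, 4177 in KO1 against Ctrl, 7400 in KO2 against Ctrl and 7529 in KO2 against KO1, and those of the pathway lists, 32, 47 and 47, stayed within 1.5 times in all 114 alternative values. With 1 library left out they ran from 3215 to 4503, 6412 to 7985 and 6451 to 7964, and for the lists from 29 to 37, 41 to 50 and 41 to 49. With a replicate block they were 3365, 6726 and 6829, and 32, 44 and 45 for the lists. With limma on log2(FPKM + 0.1), KO2 against Ctrl had 2636 higher and 4795 lower genes, where edgeR had 3367 and 4033. For KO2 against KO1 that scale gave 2496 and 5027, log2(FPKM + 1) gave 2524 and 4969, and edgeR 3495 and 4034. The median of all genes shifted to -0.107 and -0.126 with log2(FPKM + 0.1).

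Of 2722 alternative values of single genes, 2590 kept their direction and their side of the threshold, 61 lost the call, 38 gained it and 33 changed sign. Changes of sign in KO1 against Ctrl came for Nr1h3 with upper quartile scaling (0.010) and on FPKM (0.0061 and 0.00428). Leaving out 1 library, the ranges that crossed 0 were -0.20 to 0.14 for Nr1h3, -0.037 to 0.13 for Hdac3, -0.23 to 0.53 for Hoxa4, -0.072 to 0.044 for Nrip1 and -0.24 to 0.051 for Pml. In KO2 against Ctrl they were -0.18 to 0.13 for Rarg and -0.051 to 0.16 for Fabp5, which on FPKM had -0.00185 and -0.00151. In KO2 against KO1 the sign changed on FPKM for Dhrs9 (-0.0811 and -0.0842), Nrip1 (0.097 and 0.0991), Rara (-0.0587 and -0.0601) and Ubl7 (-0.0589 and -0.0612). Leaving out 1 library, the ranges were -0.026 to 0.057 for Dhrs9, -0.00302 to 0.10 for Rara, -0.0535 to 0.090 for Ubl7 and -0.13 to 0.20 for Rdh5. Rdh5 was 0.0128 with no filter and 0.00189 with limma-voom. The cause was not tested. Rarg in KO2 against KO1 was called in 9 alternatives but not in the fit reported, where 55.0% of all tested genes were called. Rarg is a member chosen with these data known, so nothing is read from those calls. With 3 to 14 counts over a group, as for Crabp2, Rarb and the ALDH1A genes, depth limits any comparison.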
